A study of Mus musculus with 6 samples.

Results

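The genes described here are the Wnt ligands, the Frizzled receptors and the proteins that tune their signal. They were taken by symbol from the table of Ensembl genes: the Wnt, Fzd, Sfrp, Dkk, Rspo, Lgr4 to Lgr6, Lrp5, Lrp6, Axin1 and Axin2 genes, with the adjacent Wnt1 and Wnt10b left out. This gave 46 of the 55487 genes in the table, of which 17 were ligands, 10 Frizzled receptors, 4 secreted Frizzled-related proteins (Sfrp), 4 Dickkopf proteins (Dkk), 4 R-spondins (Rspo), 3 Lgr receptors, 2 Lrp co-receptors and 2 Axins. RNA sequencing libraries came from muscle stem cells of mice aged 10 weeks, taken 60 h after injury with CTX, a snake venom toxin. The controls (Control_OIL) were labelled WT and given oil, and the knockouts (KO, Setdb1_KO_TAM) were labelled KO for Setdb1 and given tamoxifen. Each group held 3 libraries that the labels call biological replicates. Genotype and drug changed together, so their effects cannot be told apart, and the labels do not name the recombinase, its promoter or the deleted exon. The SETDB1 enzyme places methyl groups on lysine 9 of histone H3, a mark of silent chromatin.

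Wnt proteins are secreted, lipid-modified ligands that bind a Frizzled receptor together with the co-receptor Lrp5 or Lrp6. Binding recruits Axin to the membrane, which stops the complex of Axin, Apc and Gsk3 from marking beta-catenin for destruction. Beta-catenin then enters the nucleus and acts with TCF and LEF factors on target genes, Axin2 among them. In muscle, Wnt signals act on satellite cells, the stem cells of the tissue: Wnt7a and its receptor Fzd7 are known for driving their symmetric expansion through the planar polarity arm of the pathway, and beta-catenin signalling for its part in differentiation.

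Total counts per library ran from 4052569 to 5690844, of which protein-coding genes received 2002124 to 3050460. Setdb1 was measured at 34.8, 40.5 and 32.1 CPM (counts scaled to library size, with the TMM method) in the controls against 16.5, 12.7 and 14.7 CPM in the KO libraries (log2 fold change -1.30, SE 0.16, adjusted p = 0.0002092, edgeR). Satellite cell markers were present in every library, with Pax7 at 26.9 ± 5.7 and 26.9 ± 6.56 CPM (mean ± SD, n = 3 each). KO library 1 stood apart from the other 5. It held a count in 30363 genes, against 18737 to 19951 in the others, and 16534 of its genes had 1 to 5 counts, against 6661 to 7458. In the 1420 protein-coding olfactory and vomeronasal receptor genes, a set chosen after these values were seen, KO library 1 had 3761 counts and the others 228 to 379. That is 0.708 counts per kilobase of exon, against 0.0429 to 0.0714. The members with few reads are touched most by this level, so the ratios of those described are given with and without KO library 1.

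Most of the 46 genes were scarcely transcribed in these cells. The low-count filter of edgeR, which asks for about 10 counts in at least 3 libraries, was passed by 16: Wnt7b and Wnt10a, 8 of the 10 Frizzled genes, Lrp5 and Lrp6, Lgr4, Sfrp2, Axin1 and Axin2. No Dkk or Rspo gene passed it. None of the 16 passed the test of the difference between the groups. In the quasi-likelihood test of edgeR, with p adjusted over all 11224 genes tested, 0 of 16 were called, while 2.83% of all tested genes were. DESeq2 called 0 of 27 members it tested and limma-voom 0 of 16. At an unadjusted p under 0.05 there were 5 members, Sfrp2 and Lrp6 with a higher mean in KO cells and Fzd3, Fzd4 and Fzd7 with a lower one, against 17.7% of all tested genes (10.1% higher and 7.64% lower). The groups did not overlap in 3 of the 16 (Axin1, Fzd3 and Fzd8), against 24.3% of all tested genes. The median log2 fold change (KO minus control) was -0.014 over the 16, with 8 of them negative and 8 positive, and 0.007 over all tested genes. In simulated data for this comparison, a 1.5-fold change was recovered for 16.8% of genes, a 2-fold change for 63.6% and a 4-fold change for 88.8%, so a miss of the threshold does not show that a member was unchanged. In bulk libraries fewer cells with a transcript and less of it per cell cannot be told apart.

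**Figure D1:**
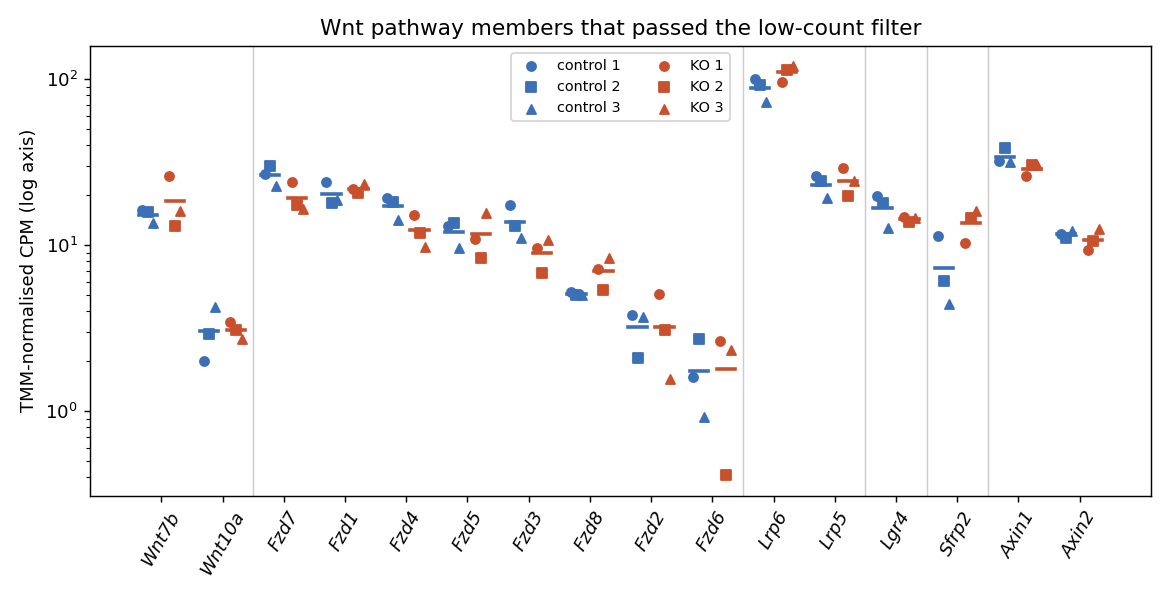
TMM-normalised CPM (log axis) of the 16 members that passed the low-count filter, in each of the 3 control (blue) and 3 KO (orange) libraries, with the group means as short lines and grey lines between families. Lrp6 is the highest in CPM, at 72.6 to 119.8, and control and KO points interleave in all but Axin1, Fzd3 and Fzd8.

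Among the ligands, Wnt7b, which signals through beta-catenin in several epithelia, was the main transcript. It was measured at 16.2, 15.9 and 13.7 CPM in the controls against 26.1, 13.1 and 16.0 CPM in the KO libraries. KO library 1 was the high one, and the other 2 KO values lay within or just beside the control range. The log2 fold change was 0.25 (SE 0.23, 95% interval -0.24 to 0.74, edgeR adjusted p = 0.6051), and -0.06 without KO library 1. Wnt10a, a ligand known from tooth and hair development, was at 2.00, 2.92 and 4.25 CPM in the controls against 3.46, 3.08 and 2.74 CPM in the KO libraries. Its groups overlapped fully. The 95% interval of the difference was -1.14 to 1.14, but its SE (0.53) was derived from a log2 fold change of 0.0002. An SE derived from a value so near 0 is unstable. The SE was 0.38 with DESeq2 size factors, 0.40 with structural RNA genes left out and 0.64 in the DESeq2 test. Whether the data hold a 2-fold change of Wnt10a therefore depends on the fit. Per kilobase of exon, scaled to the same total over protein-coding genes in each library (TPM), Wnt7b had a mean level of 17.6 over the 6 libraries and Wnt10a one of 6.27. The next ligand genes were Wnt9a at 2.98 TPM and Wnt11 at 1.83 TPM, and the 13 others were between 0 and 1.28 TPM.

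Wnt7a, the ligand known for satellite cell expansion, had 0 counts in all 6 libraries, as did Wnt3a and Rspo1. A count of 0 allows up to 3 counts, or 0.527 to 0.740 CPM of a library's unscaled total, so a lower level was not detectable at this depth. Of the 2 ligand genes left out of the set, Wnt10b had 1 count over the control libraries and 42, 39 and 46 counts in the KO libraries, and its neighbour Wnt1 had 2 counts in KO library 2 and none elsewhere.

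The Frizzled receptors were the best represented family, with 8 tested genes. Fzd7 and Fzd1, close relatives that bind many Wnt ligands, led in level per length, at 25.9 TPM (18.4 to 33.8 over the 6 libraries) and 25.7 TPM (20.8 to 32.4), a difference smaller than their spread. Fzd4, which also binds the non-Wnt ligand norrin, followed at 11.3 TPM and Fzd5 at 8.77 TPM. Fzd8, Fzd3 and Fzd2 lay between 4.49 and 5.13 TPM, again within one another's spread, and Fzd9, Fzd6 and Fzd10 between 0.628 and 2.89 TPM.

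Fzd7 was measured at 26.8, 29.9 and 22.9 CPM in the controls against 23.9, 17.5 and 16.6 CPM in the KO libraries. KO libraries 2 and 3 lay below every control, and KO library 1 lay above control library 3. The mean was 26.5 ± 3.48 in controls and 19.3 ± 4.01 in KO cells (log2 fold change -0.47, SE 0.17, edgeR adjusted p = 0.18), a difference that did not pass the threshold. Without KO library 1 the log2 fold change was -0.64 (adjusted p = 0.1273).

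Fzd4 was at 19.2, 18.2 and 14.2 CPM in the controls against 15.2, 11.9 and 9.77 CPM in the KO libraries. Only KO library 1 reached into the control range, and the log2 fold change was -0.50 (SE 0.20, edgeR adjusted p = 0.2113). Fzd3, whose product acts with Celsr proteins in axon guidance and planar polarity, was at 17.4, 13.2 and 11.1 CPM in the controls against 9.58, 6.78 and 10.7 CPM in the KO libraries. Its groups did not overlap, though control library 3 and KO library 3 lay close to each other (log2 fold change -0.62, SE 0.23, edgeR adjusted p = 0.1802). At the per-kilobase level of the olfactory and vomeronasal receptor genes, 9.07 of the 36 counts of Fzd3 in KO library 1 would be matched, as its exons span 12804 bases. Without that library its log2 fold change was -0.66.

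Fzd8 was at 5.21, 5.01 and 4.99 CPM in the controls against 7.18, 5.34 and 8.40 CPM in the KO libraries. The groups did not overlap, but KO library 2 sat just above the controls and the difference did not pass (log2 fold change 0.46, SE 0.27, edgeR adjusted p = 0.4027). Fzd1 was at 24.2, 18.0 and 18.8 CPM in the controls against 21.8, 20.5 and 23.5 CPM in the KO libraries, all of them below control library 1. Fzd1, with log2 fold change 0.11 and a 95% interval from -0.23 to 0.45, and Fzd5, with -0.04 and -0.55 to 0.47, had overlapping groups. Fzd2 and Fzd6 had wide intervals, from -0.96 to 0.91 and from -1.28 to 1.34. The Fzd6 interval holds a 2-fold change in either direction, and that of Fzd2 just leaves it out. For Fzd2 the SE was 0.44 in edgeR and 0.67 in the DESeq2 test, so this bound depends on the fit. Summed per length, the 10 Frizzled genes gave 115.4, 99.95 and 76.8 TPM in the controls and 99.1, 73.8 and 82.8 TPM in the KO libraries, so the totals overlapped.

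Within that total the mix of receptors could be read per library. Fzd7 took 28.8%, 33.8% and 30.4% in the controls and 27.8%, 25.7% and 22.2% in the KO libraries. Fzd1 took 28.1%, 22.0% and 27.0% in the controls and 27.4%, 32.7% and 33.8% in the KO libraries. Fzd7 had the larger share in all 3 controls and in KO library 1, and Fzd1 in KO libraries 2 and 3. Fzd8 held 4.24% to 5.03% in the controls and 5.97% to 8.51% in the KO libraries. These shares carry no test, and they follow from the values above rather than add to them.

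**Figure D2:**
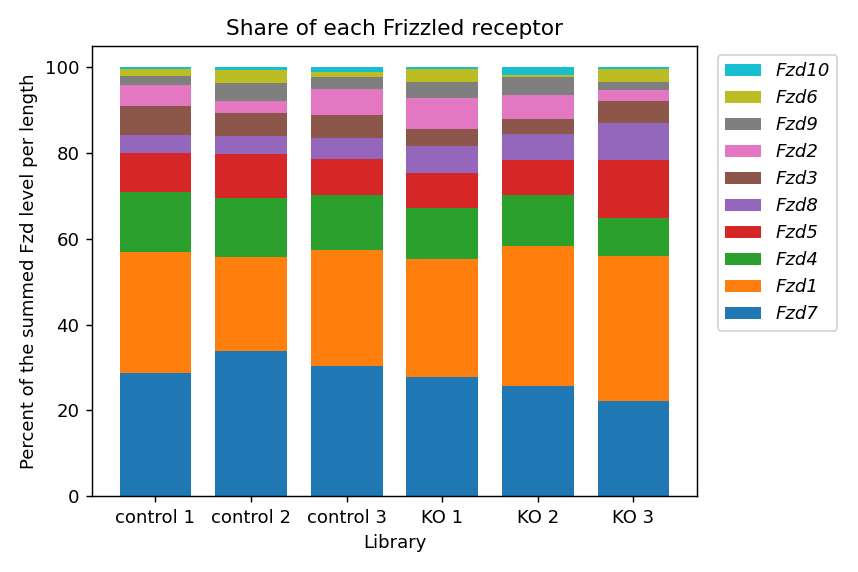
Percent of the summed Frizzled level per length held by each of the 10 Fzd genes in each library, from the most abundant at the base. Fzd7 and Fzd1 are the widest bands in every bar, and Fzd7 runs from 33.8% in control library 2 to 22.2% in KO library 3.

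The co-receptors were present in all libraries. Lrp6, the main partner of Frizzled in beta-catenin signalling, was at 99.9, 92.1 and 72.6 CPM in the controls against 96.8, 113.6 and 119.8 CPM in the KO libraries. KO libraries 2 and 3 lay above every control, while KO library 1 fell inside the control range. The log2 fold change was 0.32 (SE 0.14, 95% interval 0.03 to 0.61, edgeR adjusted p = 0.2345), which did not pass. Lrp5, its relative, was at 26.0, 24.4 and 19.2 CPM in the controls against 29.3, 19.9 and 24.2 CPM in the KO libraries, with a log2 fold change of 0.07 (95% interval -0.30 to 0.44). Per length Lrp6 had 37.0 TPM (24.6 to 43.9) and Lrp5 12.5 TPM (9.12 to 15.7), and the lowest Lrp6 library lay above the highest Lrp5 library.

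Of the Lgr receptors, which bind R-spondins and so protect Frizzled from degradation, only Lgr4 was tested. It was at 19.8, 18.0 and 12.7 CPM in the controls against 14.9, 13.8 and 14.7 CPM in the KO libraries, with all KO values inside the control range (log2 fold change -0.22, SE 0.19, edgeR adjusted p = 0.5819). Lgr5, a stem cell marker of the gut and itself a beta-catenin target, had 3, 11 and 13 counts in the controls and 7, 7 and 3 in the KO libraries. Of the R-spondins, Rspo2 had the most counts, 2, 1 and 0 in the controls and 7, 2 and 1 in the KO libraries, followed by Rspo3 with 0, 0 and 3 in the controls and 2, 0 and 2 in the KO libraries. Summed counts, KO over control, had a ratio of 0.696 for Lgr5 (0.564 without KO library 1), 3.69 for Rspo2 (1.52 without it) and 1.47 for Rspo3 (1.01 without it), and the 95% intervals of all of these ratios held 1.

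Sfrp2, a secreted protein that can bind Wnt ligands, had the largest log2 fold change of the 16 tested members. It was measured at 11.4, 6.05 and 4.43 CPM in the controls against 10.4, 14.6 and 16.0 CPM in the KO libraries. Control library 1 was the high control and lay above KO library 1, so the groups overlapped. The mean was 7.30 ± 3.65 in controls and 13.7 ± 2.94 in KO cells (log2 fold change 0.92, SE 0.31, 95% interval 0.23 to 1.61, edgeR adjusted p = 0.1591). Sfrp2 passed the threshold under 2 alternatives only. Without control library 1 its log2 fold change was 1.39 (adjusted p = 0.01686), and with no low-count filter it was 0.88 (adjusted p = 0.01397). Over all alternatives the adjusted p ran from 0.01397 to 0.564.

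Sfrp2 is also transcribed by fibroblasts, so the fibro-adipogenic markers are given beside it. All 12 markers of that list had counts, and 9 were tested: none was called, but 8 of the 9 values were positive, with a median log2 fold change of 0.495 against 0.007 over all tested genes. At an unadjusted p under 0.05, 2 were higher (Col3a1 and Gsn) and 1 lower (Cd34). Their summed level was 1945, 909.96 and 1409 CPM in the controls and 1673, 1698 and 2508 CPM in the KO libraries. The order of the libraries was the same for this sum and Sfrp2 only in part. Control library 1 was the high control and KO library 3 the high KO library for both. The lowest control was control library 2 for the sum and control library 3 for Sfrp2. Control library 1 lay above KO library 2 for the sum and below it for Sfrp2. The part of such cells in the Sfrp2 values was not tested. Per length Sfrp2 had 24.9 TPM over the 6 libraries, and the next member of its family, Sfrp1, had 1.67 TPM, with 4, 4 and 7 counts in the controls and 13, 7 and 4 in the KO libraries. Its summed counts had a ratio of 1.77 (exact 95% interval 0.891 to 3.63), and 1.12 without KO library 1.

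The Axins are scaffolds of the complex that destroys beta-catenin. Axin1 had the highest mean level per length of all members over the 6 libraries, 42.0 TPM (35.6 to 51.5), a range that overlapped that of Lrp6. Axin1 lay above Lrp6 in each control library. In the KO libraries it lay below, at 35.6, 39.4 and 39.6 TPM against 37.0, 41.0 and 43.9 TPM for Lrp6. Axin1 was at 32.2, 38.4 and 32.0 CPM in the controls against 26.1, 30.6 and 30.3 CPM in the KO libraries. The groups did not overlap, but control library 3 and KO library 2 differed by little (log2 fold change -0.23, SE 0.14, edgeR adjusted p = 0.4026). Axin2, the usual readout of beta-catenin activity, was at 11.6, 11.1 and 12.2 CPM in the controls against 9.31, 10.7 and 12.5 CPM in the KO libraries. The log2 fold change of Axin2 was -0.09 (SE 0.19, adjusted p = 0.8435), and its 95% interval, -0.50 to 0.31, leaves out a 2-fold change in either direction.

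**Figure D3:**
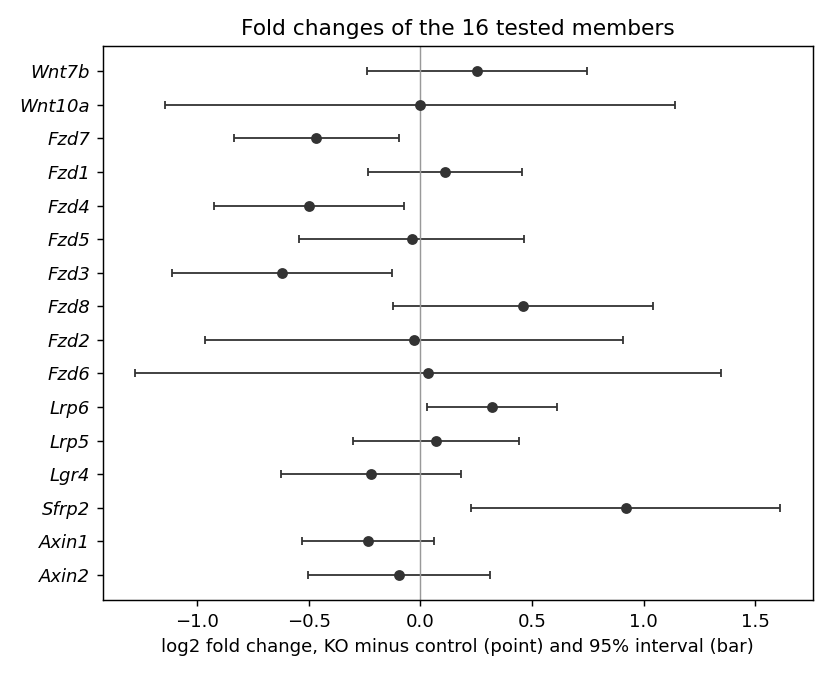
log2 fold change (KO minus control) of the 16 tested members, as points, with 95% intervals from the edgeR fit as bars. The intervals of Fzd3, Fzd4 and Fzd7 lie below 0 and those of Lrp6 and Sfrp2 above it before adjustment over all genes, and none of the 16 passes after it.

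Promoter windows are printed for the members with the largest folds in each direction and an entry in the RefSeq table (GRCm38.p6). Most member windows there held more CpG dinucleotides, the sites of DNA methylation, than the median window. Their lower quartile was 17 CpG, against a median of 7 over all windows. Each window runs from 250 bases before to 50 after a transcription start, and CG is in capitals. Sfrp2 had a higher mean in KO cells and Fzd4 and Fzd7 a lower one, though none of these differences passed the threshold.
Sfrp2 (chr3:83766071-83766370, plus strand): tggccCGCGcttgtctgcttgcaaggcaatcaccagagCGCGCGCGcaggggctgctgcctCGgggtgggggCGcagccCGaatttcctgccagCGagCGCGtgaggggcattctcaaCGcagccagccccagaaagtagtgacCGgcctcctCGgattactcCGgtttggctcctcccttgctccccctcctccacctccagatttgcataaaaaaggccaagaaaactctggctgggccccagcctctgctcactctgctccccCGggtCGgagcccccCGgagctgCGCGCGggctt
Fzd4 (chr7:89404116-89404415, plus strand): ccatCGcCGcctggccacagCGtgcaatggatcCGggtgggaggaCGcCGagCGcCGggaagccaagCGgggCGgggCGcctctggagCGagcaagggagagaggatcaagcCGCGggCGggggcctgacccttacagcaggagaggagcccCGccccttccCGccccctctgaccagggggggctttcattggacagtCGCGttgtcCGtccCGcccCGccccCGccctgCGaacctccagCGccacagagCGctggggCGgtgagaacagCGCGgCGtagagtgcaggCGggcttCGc
Fzd7 (chr1:59481897-59482196, plus strand): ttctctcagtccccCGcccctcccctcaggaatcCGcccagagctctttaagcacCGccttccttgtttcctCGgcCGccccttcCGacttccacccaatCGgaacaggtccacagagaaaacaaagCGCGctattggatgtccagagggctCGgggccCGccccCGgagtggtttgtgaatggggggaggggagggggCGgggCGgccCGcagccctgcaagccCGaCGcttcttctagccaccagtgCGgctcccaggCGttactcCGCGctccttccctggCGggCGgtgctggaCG
The Sfrp2 window held 22 CpG, that of Fzd4 32 and that of Fzd7 24. Of the 46 members, 28 had an entry, with 31 windows in all and a median of 29 CpG, against 7 over all 32851 windows of the table. The windows of the 7 tested members with an entry had a median of 24 CpG (16 to 38). The 24 windows of the 21 members below the filter had one of 29 (4 to 58). So the tested members with an entry did not have the higher CpG count, and 9 tested members had no entry.

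The TCF and LEF factors are known to bind the letters ATCAAAG. Both strands were searched, so that the same letters read as CTTTGAT also counted, and besides CG no other motif was sought. A match was found in 2 of the 31 member windows (6.45%), at Wnt11 and Wnt5b, and in 3.73% of all windows. The Wnt11 window is shown with the match in capitals.
Wnt11 (chr7:98834862-98835161, plus strand): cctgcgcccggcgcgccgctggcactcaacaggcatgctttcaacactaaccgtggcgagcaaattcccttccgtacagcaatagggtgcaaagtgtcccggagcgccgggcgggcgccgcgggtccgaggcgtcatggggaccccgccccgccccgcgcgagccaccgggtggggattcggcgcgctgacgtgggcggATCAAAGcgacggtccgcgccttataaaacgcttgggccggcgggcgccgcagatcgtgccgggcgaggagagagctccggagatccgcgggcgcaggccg
Wnt11, a ligand of the planar polarity arm, had 5, 7 and 10 counts in the controls and 5, 6 and 11 in the KO libraries, a ratio of summed counts of 1.11 with an exact 95% interval of 0.584 to 2.09, and of 1.18 without KO library 1. A match of these letters describes the window and is not a shown binding site.

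The 30 members below the filter had 192 counts over the control libraries and 279 over the KO libraries. By library there were 53, 56 and 83 in the controls and 131, 85 and 63 in the KO libraries. KO library 1, the least sequenced, was the highest of all, and it alone was the top library for 14 of the 30 genes. It held a count in 26 of them, against 14 to 19 in the other libraries. At its per-kilobase level of olfactory and vomeronasal receptor genes, 78.1 of its 131 counts would be matched. Without it the KO libraries lay within or close to the control range.

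**Figure D4:**
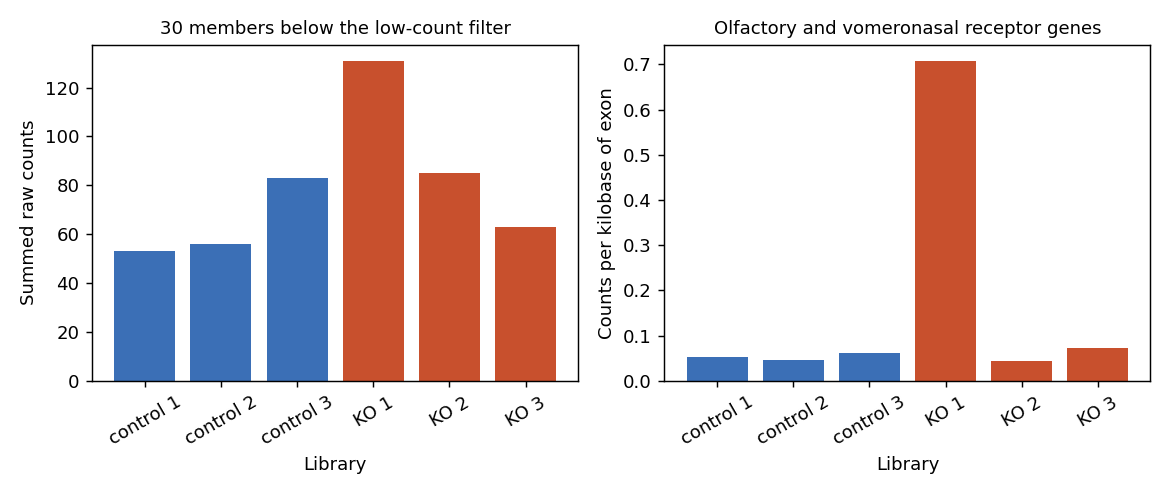
Left, summed raw counts of the 30 members below the low-count filter in each library, and right, counts per kilobase of exon over 1420 olfactory and vomeronasal receptor genes (control blue, KO orange). KO library 1 is the highest in both, with 131 counts on the left and 0.708 counts per kilobase on the right.

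For 27 of these 30 genes a ratio of summed counts, KO over control, could be bounded by an exact binomial interval that covers counting error only, not the spread between animals. The 95% interval left out 1 for 4 of them, all higher in KO libraries: Wnt4, Dkk2, Lgr6 and Wnt5a. Over all genes below the filter with a count, 7.89% did so upward and 0.887% downward. KO library 1 was the highest library for all 4. Without it only Wnt5a was left of 24 members with a count. Over all 16315 genes below the filter with a count outside KO library 1, the interval left out 1 upward for 2.75%. Except for Dkk2, these genes are named after their values were seen.

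Wnt5a, a ligand of the planar polarity and calcium arms, had 5, 1 and 4 counts in the controls and 9, 8 and 8 in the KO libraries. In CPM, every KO library lay above every control for Wnt5a and Lgr6, 2 of the 27 members below the filter with a count, and for none was every KO library below. Over all genes below the filter with a count, 3.49% had groups apart with KO higher and 0.743% with KO lower. The Wnt5a ratio was 2.76 (1.28 to 6.45), and 2.43 (1.04 to 6.0) without KO library 1. Wnt4, a ligand known from kidney and gonad development, had 3, 0 and 2 counts in the controls and 13, 7 and 2 in the KO libraries. Its ratio of 4.86 (1.80 to 16.4) became 2.74 (0.824 to 10.4) without KO library 1.

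Dkk2, a secreted protein that binds Lrp5 and Lrp6, had 1, 2 and 4 counts in the controls and 10, 7 and 3 in the KO libraries, with a ratio of 3.16 (1.28 to 8.84) and of 2.17 (0.747 to 6.73) without KO library 1. Lgr6 had 5, 1 and 4 counts in the controls and 13, 7 and 6 in the KO libraries, with a ratio of 2.87 (1.34 to 6.68) that became 1.98 (0.801 to 5.04). Each of these 2 genes had its highest count in KO library 1. Dkk3, the other Dickkopf gene with more than a few counts, had 5, 3 and 4 counts in the controls and 3, 5 and 8 in the KO libraries, with a ratio of 1.47 (0.654 to 3.41) and of 1.65 without KO library 1. Wnt9a, with 54 counts the most of any member below the filter, had a ratio of 1.49 (0.841 to 2.68), and of 1.19 without KO library 1. Of the 30 genes, 17 had fewer than 10 counts over all 6 libraries, which supports no direction.

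Other genes of the Wnt pathway were read from 8 lists, in which a gene can stand more than once. Of 144 genes that are not family members, 105 were tested and none was called by edgeR, DESeq2 or limma-voom. At an unadjusted p under 0.05, 7 were higher and 2 lower, which is 9 of 105 where 17.7% of all tested genes had such a p (10.1% higher, 7.64% lower), and 2.83% of all tested genes were called. The median log2 fold change was 0.04, with 60 positive and 45 negative, against 0.007 over all tested genes. The genes at an unadjusted p under 0.05 are named after their values were seen, as are Ctnnb1 and Igfbp4, and the others are the 2 most abundant of each list.

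In the list for making and releasing ligands, 9 of 11 genes were tested. For the cargo receptor gene Tmed2 the log2 fold change was 0.11 (SE 0.11), and for Tmed10 it was 0.08 (SE 0.11). Trabd2b, whose product cuts and inactivates Wnt ligands, was at 1.96 ± 0.882 and 4.27 ± 1.83 CPM (unadjusted p = 0.03074, edgeR adjusted p = 0.2265). Among 6 tested receptors outside the families, the Wnt-binding kinase-like receptor Ryk had a log2 fold change of -0.09 (SE 0.11), the polarity receptor Ptk7 one of 0.28 (SE 0.20), and Mcc, a regulator inside the cell that the list also holds, one of 0.45 (SE 0.20). All 7 tested extracellular modulators had a positive value, with a median of 0.13. Serpinf1 was at 0.08 (SE 0.19), the norrin co-receptor Tspan12 at 0.28 (SE 0.15), and none had an unadjusted p under 0.05.

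Of 5 tested genes of receptor turnover, the Lrp chaperone Mesd had a log2 fold change of 0.10 (SE 0.12) and the proton pump subunit Atp6ap2 one of -0.17 (SE 0.16). The beta-catenin core, with 21 tested of 24, had a median of -0.025, with 12 negative and 9 positive values. Ctnnb1, the gene of beta-catenin, was the third of this list by level, with 255 ± 12.4 CPM in controls and 292 ± 9.14 CPM in KO cells (log2 fold change 0.19, SE 0.11, edgeR adjusted p = 0.3955). Macf1 and Csnk1a1, the most abundant, had -0.06 (SE 0.15) and -0.04 (SE 0.11). Amer1, which acts in the destruction complex, had a mean of 12.3 CPM in controls and 8.29 CPM in KO cells, and its fold of -0.55 on the log2 scale (SE 0.22) had an adjusted p of 0.2079. Btrc, which marks beta-catenin for degradation, had 0.44 (SE 0.20), and Frat2, which binds Gsk3, 0.92 (SE 0.43), from 1.95 to 3.75 CPM.

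The 17 tested nuclear factors had a median of -0.098, with 11 negative and 6 positive values. The coactivator gene Crebbp had a log2 fold change of -0.10 (SE 0.13), and Ep300 one of -0.14 (SE 0.12). In the planar polarity and calcium arm, 21 of 30 genes were tested, with a median of 0.047. The small GTPase genes Rhoa and Cdc42 had 0.09 (SE 0.11) and 0.007 (SE 0.12), and Vangl1, a core polarity protein, had 0.54 (SE 0.20, edgeR adjusted p = 0.1822). Of 22 tested beta-catenin targets outside the families, 13 had positive and 9 negative values, with a median of 0.015. Cd44 and Ccnd1 had 0.05 (SE 0.13) and -0.11 (SE 0.12). Myc had -0.32 (SE 0.12, adjusted p = 0.1842) between 142 CPM in controls and 113 CPM in KO cells, Ppard had 0.50 (SE 0.20), and Ccn4, a secreted matricellular protein first known as a Wnt1-induced gene, had 0.48 (SE 0.14, adjusted p = 0.09421). Ccn4 passed without control library 1 (adjusted p = 0.03763), and Igfbp4, which can bind Frizzled and Lrp6, passed with no low-count filter (0.023).

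**Figure D5:**
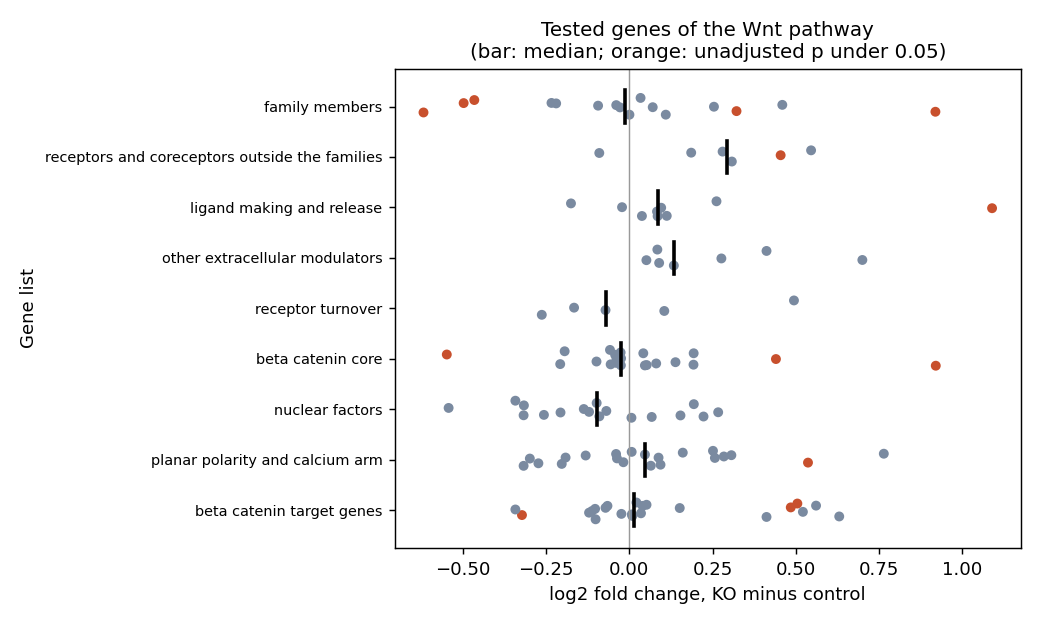
log2 fold change (KO minus control) of each tested gene in the family and in 8 lists of the Wnt pathway, with the median of each list as a bar and genes at an unadjusted p under 0.05 in orange. List medians lie between -0.10 and 0.29, and no gene shown passed the adjusted threshold.

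Markers of satellite cells and of other cells are given beside these values. Summed mural and smooth muscle markers were at 95.6 to 128.6 CPM in the controls and 172.6 to 220.2 CPM in the KO libraries. Tagln and Acta2 rose by log2 fold changes of 1.51 and 0.72 (2 of 6 tested called, against 2.83% of all tested genes). The other tested genes of that list were not called, with Notch3 at 0.77, Cspg4 at 0.76, Pdgfrb at 0.30 and Rgs5 at -0.002. Tendon markers ran from 354.7 to 1072 CPM in the controls and from 741.9 to 1169 CPM in the KO libraries, with 0 of 6 called, and Thbs4 and Fmod at 0.26 (SE 0.49) and 0.31 (SE 0.45). Endothelial (5.85 to 13.4 and 12.3 to 18.1 CPM, with Eng at 0.88 and Tek at 0.06) and Schwann cell markers (23.0 to 34.7 and 22.9 to 38.8, with Ngfr at 0.06) had no called gene. Macrophage markers (9.6 to 101.6 and 8.78 to 43.5 CPM) had none either. Of their 4 tested genes, Lyz2 was at -0.80 (SE 1.40), Itgam at -0.83 (SE 1.59), Cd68 at -0.35 (SE 0.48) and Mrc1 at 0.31 (SE 0.44). Lymphocyte markers were at 0.2 to 3.51 CPM with none tested. Neutrophil markers were at 0, 1.04 and 1576 CPM in the controls against 1.60, 692.4 and 202.3 CPM in the KO libraries, with none called. S100a9 was at -1.10 (SE 2.68), S100a8 at -0.99 (SE 2.63), Ltf at -0.94 (SE 2.19) and Camp at -0.78 (SE 2.05). Elane was at -0.003 (SE 2.08) and Mpo at 0.215 (SE 2.25). Of the 9 satellite markers tested, 1 was called: Myod1 rose by 1.04 (from 142 to 292 CPM). The list had 5 negative and 4 positive values and a median of -0.009. Cdh15 was at 0.38 (SE 0.17, edgeR adjusted p = 0.2586), Vcam1 at 0.13 and Itga7 at 0.04. Calcr was at -0.26, Chrdl2 at -0.15, Sdc4 at -0.06, Pax7 at -0.01 and Myf5 at -0.009. The satellite sum, which includes Myod1, ran from 876.7 to 970.1 CPM in the controls and from 1007 to 1242 CPM in the KO libraries. Acta1 of the myofibre list rose by 1.84 (1 of 3 tested called, with Myh1 at 0.70 and Tnnt3 at -0.32), with sums of 9.61 to 14.0 and 22.1 to 28.2 CPM. Each list but the lymphocyte one, where 1 gene was at 0 throughout, had counts for all its genes. The part of these cells in the values of the members was not tested.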

How the data were processed

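RNA was measured in 6 libraries of 2 groups of 3. Per the labels' protocols, total RNA was depleted of ribosomal RNA, and stranded total RNA libraries were made and sequenced as read pairs, though a SMARTER mRNA-seq kit is also named. The authors deposited raw counts per Ensembl gene. STAR, Salmon and DESeq2 1.34.0 with GRCm38 stand in the submitters' processing notes, and for the annotation release and strand setting nothing is given in the sources used here.

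Symbols were found for 55141 of 55487 genes. Coordinates and exon lengths came from GENCODE M21 (GRCm38). At most 3.8% of the 50-base words of a member's transcripts stood in another gene. Exons of 8 members overlapped a gene on the opposite strand, whose reads cannot be told apart if strand was ignored. These were Axin2, Fzd5, Fzd6, Rspo3, Sfrp2 (347 of 2153 exon bases), Wnt11, Wnt5a and Wnt7b. Counts were tested with edgeR 4.0.16 (R 4.3.3; TMM, filterByExpr, robust quasi-likelihood F test, two-sided, Benjamini-Hochberg over 11224 genes, threshold 0.05) and this was tested on simulated data (5 sets, each with 200 changed genes). Intervals of log2 fold changes are at 95%. Alternatives were other scalings, filters, DESeq2 1.42.0, limma-voom 3.58.1, the replicate number as a block, removal of structural RNA genes, and each library left out. Genes named are all members in some form, with every library for those at an unadjusted p under 0.05 and the 2 most abundant of each family, and up to 6 called or else the 2 most abundant genes of each list. All tested genes of the mural, endothelial, Schwann cell, macrophage, neutrophil, satellite and myofibre lists are named as well. The members and lists were chosen with earlier results of these data known.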

Additional observations from a re-analysis of the deposited data

How the results depend on the processing

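Over 14 alternatives, 194 of 224 fold changes of the 16 tested members kept their sign and stayed on the same side of the threshold, and 10 members never changed sign. Members called numbered 0 except 1 with no low-count filter and 1 without control library 1 (0 to 1 over the libraries left out), Sfrp2 in both, and the other pathway genes likewise 0 except 1 and 1 (0 to 1), Igfbp4 and Ccn4. Over all genes, 318 were called, 511 with no low-count filter (where 34908 genes were tested), 184 with DESeq2, 200 with limma-voom and 152 to 345 with 1 library left out, the lowest without KO library 1 (157 without control library 2, 180 without KO library 2). The 6 members that changed sign were Wnt7b, with a main log2 fold change of 0.25, and 5 others between -0.04 and 0.07. Fzd6 had -0.0385 with library totals alone, -0.0179 with no filter, -0.0045 with DESeq2 and -0.18 with limma-voom, and Lrp5 -0.0066 with library totals alone. Wnt10a had -0.013 with DESeq2 size factors, -0.0102 with a minimum of 1 CPM in 3 libraries, -0.0511 with library totals alone, -0.0396 with no filter and -0.0299 with DESeq2. With 1 library left out, ranges were -0.47 to 0.31 for Fzd2, -0.34 to 0.15 for Fzd5, -0.31 to 0.52 for Fzd6, -0.07 to 0.20 for Lrp5, -0.24 to 0.32 for Wnt10a and -0.06 to 0.45 for Wnt7b. The cause of these changes was not tested. With the replicate block, 247 genes, 0 members and 0 other pathway genes were called. The labels do not say that the numbers pair animals. Deviations of same-numbered libraries correlated at 0.142, -0.093 and -0.062 over genes, and those of different-numbered libraries at -0.25 to 0.286. Control library 1 and KO library 1 correlated best with each other, and the other libraries did not correlate best with their own number. With 3 libraries per group these values cannot decide whether numbers pair animals. Depth limits the 30 members below the filter.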
